A study of Mus musculus with 5 samples.

Results

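The binding of RXRα was examined at 10 genes, the known targets of the liver X receptors (LXRs) in cholesterol handling together with the genes of the receptors themselves: Abca1, Abcg1, Mylip, Srebf1, Lpcat3, Scd1, Scd2, Apoe, Nr1h3 and Nr1h2. They are 10 of the 21827 protein-coding genes of the annotation. A peak was assigned to one of them when the transcription start site (TSS) nearest to the middle of the peak, among all protein-coding genes, was that of the gene. The WT A list held 23 such peaks among 4751, the WT G list 44 among 9766, the KO A list 0 among 83 and the KO G list 4 among 208.

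The lists come from RXRα HT-ChIPmentation, a chromatin immunoprecipitation in which the sequencing adapters are inserted by a transposase on the beads. The cells were alveolar macrophages (AMs) of adult mice, washed out of the lung by bronchoalveolar lavage and sorted by FACS. All mice were on the C57BL/6J background and carried floxed alleles of both Rxra and Rxrb. WT A and WT G had no Cre (CD11cCre- Rxrabfl/fl), KO A and KO G expressed Cre (CD11cCre+ Rxrabfl/fl), and an input library served as the control for calling peaks. Cre is driven by the Cd11c promoter, which is active in AMs but also in dendritic cells. Peak lists give no transcript levels, so neither the loss of Rxra and Rxrb nor the AM markers could be checked in them. The labels do not say whether A and G were separate mice, and the spread between them may therefore be technical.

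Retinoid X receptors (RXRs) bind DNA as homodimers or as partners of other nuclear receptors, among them the LXRs and the PPARs. LXRα (encoded by Nr1h3) and LXRβ (Nr1h2) sense oxysterols, the oxidized forms of cholesterol, and raise the export of cholesterol, lower its uptake and drive the making of unsaturated fatty acids. AMs take up surfactant, a lipid mixture of mainly phospholipid that also holds cholesterol. LXR-RXR is known for binding a direct repeat of the hexamer AGGTCA with 4 bases between the copies (DR4), and PPAR-RXR for a repeat with 1 base between (DR1).

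The 50 bp to either side of every member summit were searched on both strands for these repeats. The windows below are shown because they hold the closest DR4 at the Abca1 promoter and at Mylip, Scd1 and Abcg1, the summit that the WT lists share at the Lpcat3 promoter, and the closest DR1 at Mylip. Coordinates are mm10, sequence is from the GRCm38 reference, each window is written 5′ to 3′ on the stated strand, and capitals mark the hexamer copies.
Abca1 promoter, WT A, chr4:53159926-53160026, plus strand: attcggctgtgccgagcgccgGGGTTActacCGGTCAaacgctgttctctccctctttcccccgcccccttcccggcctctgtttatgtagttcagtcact
Mylip intron, WT G, chr13:45391662-45391762, plus strand: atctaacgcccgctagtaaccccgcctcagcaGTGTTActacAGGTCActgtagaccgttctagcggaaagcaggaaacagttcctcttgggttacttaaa
Scd1 distal, WT G, chr19:44388663-44388763, minus strand: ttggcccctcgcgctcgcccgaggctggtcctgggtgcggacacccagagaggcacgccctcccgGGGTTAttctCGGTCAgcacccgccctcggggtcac
Abcg1 intron, WT G, chr17:31072171-31072271, minus strand: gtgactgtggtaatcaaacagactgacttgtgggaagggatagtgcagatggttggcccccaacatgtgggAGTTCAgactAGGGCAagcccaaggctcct
Lpcat3 promoter, WT A, chr6:124662822-124662922, minus strand: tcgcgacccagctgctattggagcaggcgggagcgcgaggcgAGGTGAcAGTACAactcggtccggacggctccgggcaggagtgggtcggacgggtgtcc
Mylip distal, WT A, chr13:45442677-45442777, minus strand: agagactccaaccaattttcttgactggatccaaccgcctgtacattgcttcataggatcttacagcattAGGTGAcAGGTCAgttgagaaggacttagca

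The first of these matches lay −59 bp from the Abca1 TSS (negative values are upstream) and had 3 mismatches to the DR4. The matching site in the first part of Mylip lay 774 bp from the nearer of its TSSs (chr13:45390927). It also had 3 mismatches, as did the site near Scd1. The site in the Abcg1 intron had 2 mismatches. The repeat under the Lpcat3 summits was a DR1 with 3 mismatches, and the distal Mylip window held a DR1 with 1 mismatch.

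Few member summits held such a repeat. With at most 2 mismatches, a DR4 was found in 0 of the 23 member windows of WT A and 1 of the 44 of WT G, beside 2.02% and 1.34% of all windows. A DR1 was found in 1 and 2 of them, beside 6.04% and 3.34%. With at most 3 mismatches, a DR4 was found in 1 window of WT A and 3 of WT G, beside 11.4% and 9.61% of all windows, and a DR1 in 5 and 8, beside 20.1% and 13.9%. Windows reaching 100 bp to either side, with at most 2 mismatches, held a DR4 in 2 member windows of WT A and 1 of WT G, beside 3.66% and 2.72% of all such windows. A DR1 was found in 4 and 2 of them, beside 10.4% and 6.37%. A match is a description of the letters in a window.

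In WT A, 5 of the 10 genes were nearest to a peak (Abca1, Abcg1, Mylip, Lpcat3 and Scd1). WT G added Srebf1 and Scd2 to these 5, which made 7. The KO A list reached 0 of the genes and the KO G list 2 (Abca1 and Abcg1). Over all protein-coding genes, the share nearest to at least 1 peak was 10.4% by the WT A list and 16.6% by the WT G list. By the KO lists it was 0.353% (KO A) and 0.861% (KO G). Abca1 and Abcg1, the 2 exporters of cholesterol, held 16 of the 23 member peaks in WT A and 35 of the 44 in WT G. Apoe, Nr1h3 and Nr1h2 had no peak of their own in the 4 lists.

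**Figure D1:**
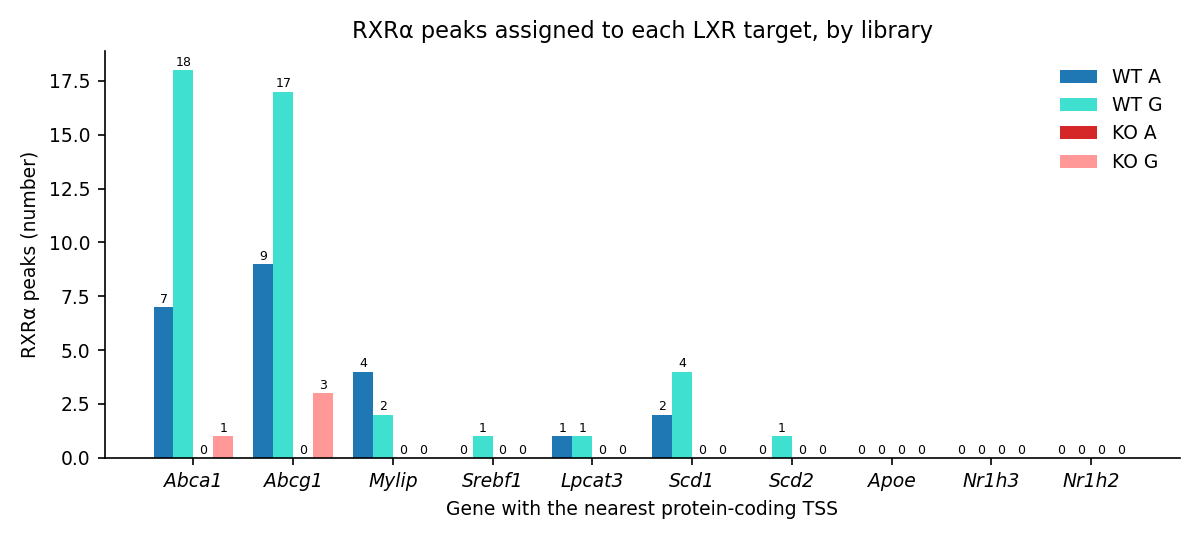
Number of RXRα peaks (vertical axis) whose nearest protein-coding TSS is that of each gene (horizontal axis), with 1 bar for each of the 4 libraries. Abca1 reaches 18 and Abcg1 17 in WT G, the KO bars are at 0 except 1 for Abca1 and 3 for Abcg1 in KO G, and Apoe, Nr1h3 and Nr1h2 have no bar.

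The mean number of member peaks was 33.5 ± 14.8 (SD, n = 2) for WT and 2 ± 2.83 (SD, n = 2) for KO, a difference of 31.5 peaks. Both WT lists were above both KO lists. An exact permutation test over the 4 libraries (two-sided) gave p = 0.333, the smallest value that 2 against 2 libraries can give, so the design cannot place this difference under 0.05. Over all genes, the lists held 7258.5 peaks on average for WT and 145.5 for KO.

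The genes differed widely in how much DNA could be assigned to them. The stretch nearest to their TSSs ran from 9.68 kb for Nr1h3, 11.8 kb for Apoe and 11.9 kb for Nr1h2 to 214 kb for Abca1 and 215 kb for Mylip. Over the 781 kb nearest to all 10 genes, WT A had 2.95 and WT G 5.63 peaks per 100 kb, beside 0.174 and 0.358 over the DNA of all protein-coding genes. The 3 genes without a peak were the 3 with the least DNA.

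Merging the overlapping peaks of WT A and WT G gave 45 member regions, of which 16 (35.6%) held a peak of both lists; over all genes the figure was 3423 of 10461 regions (32.7%). These 16 regions were spread over 5 of the 10 genes, and 8.86% of all protein-coding genes were nearest to such a region. Abca1 had 7 of them, Abcg1 4, Mylip and Scd1 2 each and Lpcat3 1. Of the 23 member peaks of WT A, 21 (91.3%) overlapped a peak of WT G, beside 83.2% of all WT A peaks, and the 2 left over were both weak or moderate (−log10 q of at most 5.50). Of the 44 member peaks of WT G, 17 (38.6%) overlapped a WT A peak, beside 36.1% of all WT G peaks. The 27 WT G peaks with no partner in WT A had a median −log10 q of 3.70, against 7.88 for those with a partner. Here q is the false discovery rate that the peak caller gave the summit, so a higher −log10 q marks a stronger call.

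Abca1 encodes the transporter that loads cholesterol and phospholipid onto apolipoprotein A-I. It lies on the minus strand at chr4:53030787-53159895, with its TSS at the higher coordinate. WT A gave the gene 7 peaks, WT G 18, KO A 0 and KO G 1. Counting Abca1 itself, 31 protein-coding genes had at least as many peaks in WT G, and 82 in WT A.

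At the Abca1 promoter, WT A had a peak at chr4:53159932-53160048 with its summit −81 bp from the TSS, −log10 q of 8.06 and a fold enrichment of 7.11 over the local background. WT G had a peak at chr4:53159768-53160048 with its summit at 53 bp, −log10 q of 4.64 and a fold enrichment of 5.80. Both peaks contained the DR4-like site at chr4:53159947-53159962, but only the WT A summit window held it. In the WT G summit window the closest DR4 had 4 mismatches. KO A and KO G had no peak there. A second promoter peak of WT G (−459 bp, −log10 q of 3.61) had no partner in WT A.

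The largest cluster of Abca1 peaks lay far inside the gene. It ran from 33.6 to 50.8 kb downstream of the TSS and held 3 of the 7 peaks of WT A and 8 of the 18 of WT G, all intronic. The strongest were at chr4:53120051-53120866 in WT A (−log10 q of 10.2, fold enrichment of 8.29) and at chr4:53118669-53119344 in WT G (10.5 and 9.03). All 3 WT A peaks of this cluster had a WT G partner, with strongest summits 152 to 242 bp apart, and no KO peak fell in it. Nearer to the TSS, both lists had a peak in the first part of the gene, at 913 bp in WT A (−log10 q of 6.16) and 669 bp in WT G (6.88). The summit window of this WT G peak held a DR1 with 2 mismatches, at chr4:53159238-53159250. In the summit window of the WT A peak the closest DR1 had 6 mismatches.

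Upstream of Abca1, both WT lists had peaks near −58 kb and −68 kb. The region near −68 kb (chr4:53227769-53228107) had summits only 16 bp apart in the WT lists, with −log10 q of 6.16 for WT A and 9.26 for WT G, and no KO peak. The region near −58 kb (chr4:53217902-53218661) lies in the promoter of 4930412L05Rik, a transcript that is not protein-coding, and is given to Abca1 by the rule on protein-coding genes alone. The strongest WT A call there had −log10 q of 6.05, that of WT G 9.21 and that of KO G 4.09. The KO G peak, at chr4:53218101-53218210, was the 1 KO peak of Abca1. It overlapped the WT G peak but not the WT A peak.

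**Figure D2:**
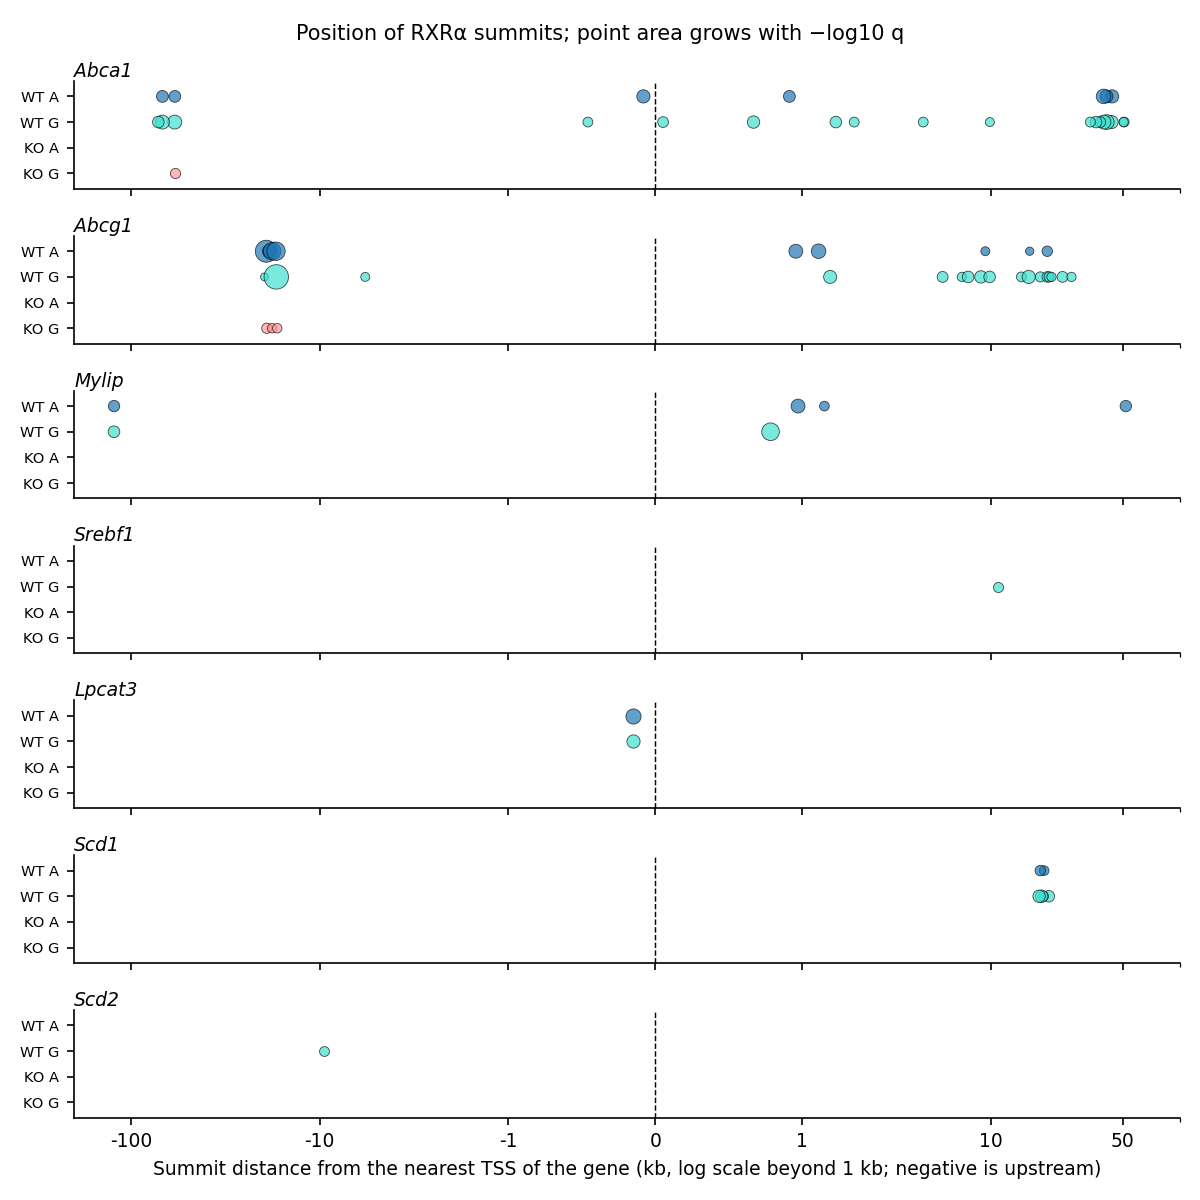
Distance of each RXRα summit from the nearest TSS of its gene (horizontal axis, kb, log scale beyond 1 kb, negative upstream) for the 7 genes with a peak, with 1 row of points per library and a point area that grows with −log10 q. Of the member peaks, 21 of the 23 of WT A and 17 of the 44 of WT G overlap a peak of the other WT list, and 27 WT G points have no WT A partner. The KO points are the 1 of Abca1 near −58 kb and the 3 of Abcg1 between −19.0 and −16.8 kb.

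Abcg1, which passes cholesterol to high-density lipoprotein, had the strongest peaks of all the members. It lies on the plus strand at chr17:31057687-31117988 and collected 9 WT A peaks, 17 WT G peaks, 0 KO A peaks and 3 KO G peaks. Relative to the 63.9 kb of DNA nearest to it, this came to 14.1 peaks per 100 kb in WT A and 26.6 in WT G. These counts rest on the choice of protein-coding genes. When a TSS of any gene type could be nearest, Gm25447, a small gene inside Abcg1, took 5 of the 9 peaks of WT A and 14 of the 17 of WT G, which left Abcg1 with 4 and 3.

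The leading Abcg1 site was an intergenic region of 3277 bp about 18 kb upstream (chr17:31038165-31041441). In WT G it was 1 peak with −log10 q of 32.5 and a fold enrichment of 16.9, number 19 of the 9766 peaks of that list. In WT A it was split into 4 peaks with −log10 q of 25.9, 7.77, 15.8 and 17.5, the first of which was number 56 of 4751. By the sum of its ranks in the WT lists it was number 22 of the 3423 regions with a peak in both.

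The strongest summits of this upstream region lay at different places, −19.2 kb in WT A and −17.0 kb in WT G. The 2193 bp between them was the largest gap among all 3423 such regions, where the median was 96 bp. WT A also had a summit at −17.0 kb, with 37 fragments stacked at it against 35 at −19.2 kb, but over a local background 2.39 times the genome-wide level. KO G had 3 peaks within the region, with summits at −19.0, −17.9 and −16.8 kb and −log10 q of 4.15, 3.16 and 3.16, all below the median of that list (5.20). KO A had none.

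Near the Abcg1 TSS, WT A had 2 peaks (summits at 957 and 1222 bp, −log10 q of 9.11 and 10.2) and WT G had 1 that covered both (1407 bp, 7.83), at chr17:31058288-31060044. This place is also the promoter of Gm25447. Further into the gene, WT G had 13 intronic peaks between 5.55 and 26.7 kb, and WT A had 3. Of these, 2 regions were in both lists, at 15.9 kb (−log10 q of 1.96 for WT A and 8.04 for WT G) and 19.9 kb (4.31 and 4.64), and both stood in the lower part of the shared regions.

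The wider windows of WT A held 3 repeats with at most 2 mismatches at the upstream region and near the TSS that the shorter windows missed, and they are given for that reason. A DR1 lay beside the strongest upstream summit (−19.2 kb), a DR4 beside the upstream summit at −17.9 kb, and a DR4 beside the summit at 1222 bp. The wider windows of WT G held no such repeat at these places, but they did not reach these 3 sites. The WT G peaks there contained all 3 sites. The DR1 is written on the plus strand and each DR4 on the minus strand.
Abcg1 upstream DR1, chr17:31038571-31038583: GAGTCAcAGGTCA
Abcg1 upstream DR4, chr17:31039744-31039759: AGGTTActtcAGGGCA
Abcg1 DR4 near the TSS, chr17:31058881-31058896: AGGTAActgtCGGTCA

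Mylip encodes a ubiquitin ligase, also called IDOL, that marks the LDL receptor for destruction and so lowers cholesterol uptake. It lies on the plus strand at chr13:45389742-45412022 and had 4 peaks in WT A, 2 in WT G and none in either KO list. Mylip has 2 TSSs, at chr13:45389742 and chr13:45390927, and each distance is from the nearer one. The main peaks were intronic and just downstream of the TSS at chr13:45390927. In WT A the summit was at 972 bp with −log10 q of 9.11 (fold enrichment of 7.89), and in WT G at 785 bp with 15.9 (fold enrichment of 11.6), the strongest WT G peak of any member but Abcg1. Both peaks contained the DR4-like site at chr13:45391694-45391709, but only the WT G summit window held it. In the WT A summit window the closest DR4 had 5 mismatches. A weaker WT A peak at 1312 bp (−log10 q of 3.43) overlapped the same WT G peak.

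Both WT lists also had a Mylip peak at −123 kb, in introns of the non-coding Gm34466 and Gm47448, with −log10 q of 5.50 for WT A and 5.87 for WT G. The DR1 at this place, with 2 mismatches, lay under the WT G summit. A WT A peak at 51.8 kb (chr13:45442651-45442826, −log10 q of 5.50) had no partner in WT G, and it was the one with the DR1 of 1 mismatch.

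Lpcat3 encodes an enzyme that puts polyunsaturated fatty acids into membrane phospholipids. It lies on the plus strand at chr6:124663027-124704418 and had 1 peak in WT A, 1 in WT G and none in KO. Both were in the promoter, with summits at −155 and −153 bp, 2 bp apart, the closest pair of the 16 shared member regions. The −log10 q was 11.3 in WT A (fold enrichment of 8.68) and 8.04 in WT G (7.74), and the peaks stood at percentiles 83.8 and 83.3 of their lists.

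Scd1 and Scd2 encode stearoyl-CoA desaturases, which make monounsaturated fatty acids, and lie on opposite strands of chromosome 19. Scd1 (minus strand, chr19:44394455-44407709) had 2 peaks in WT A, 4 in WT G and none in KO. All lay 17992 to 20252 bp past the TSS, beyond the end of the gene, with −log10 q of 3.43 and 4.31 for WT A and 3.61 to 6.88 for WT G. No list had a peak at the Scd1 promoter. Scd2 had a single intergenic WT G peak at −9.47 kb, called from 7 fragments (−log10 q of 3.61).

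Srebf1 encodes SREBP-1, the activator of fatty acid synthesis genes through which LXRs act on lipogenesis. On the minus strand at chr11:60199089-60220604, it had 1 peak, intronic at 10.9 kb in WT G, with −log10 q of 3.87 and 8 fragments. WT A and the KO lists had none. When a TSS of any gene type could be nearest, the WT G peak went to Mir6922, which left Srebf1 with 0. The Srebf1 and Scd2 peaks stood at percentiles 35.2 and 32.4 of WT G, and neither had a partner in WT A.

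Apoe, the acceptor of cholesterol that macrophages secrete, and the LXR genes themselves were nearest to no peak. Within 100 kb of the Apoe TSS, peaks were assigned to other genes of the cluster. Apoc2, a lipoprotein gene of the same cluster, had 1 in WT A (28.6 kb from Apoe, −log10 q of 8.06) and 1 in WT G (3.61). Clptm1 had 1 in WT A, and Nectin2 and Relb had 1 each in WT G. Within 100 kb of Nr1h3 there was 1 peak in WT A (−log10 q of 7.31) and 2 in WT G (9.82 for the stronger), which had Mybpc3 as the nearest TSS and lay about 85 kb away in an intron of Spi1, the gene of the macrophage factor PU.1. No list had a peak within 100 kb of Nr1h2. Near the other members, the strongest peaks with another nearest gene were those of Umodl1 (2 in WT A and 5 in WT G), 36.7 kb from the Abcg1 TSS (−log10 q of 10.2 for WT A and 15.9 for WT G), and of Scd3, 45.3 kb from Scd2 (8.04, WT G).

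Taken as a group, the member peaks had a median strength close to that of their lists. Their median −log10 q was 7.57 in WT A and 4.80 in WT G, beside 7.14 and 4.64 over all peaks, and their median fold enrichment was 6.32 and 5.82, beside 6.32 and 5.80. In WT A, 3 of the 23 were in the top 10% of the list by −log10 q and 11 below its median. All 3 were parts of the Abcg1 upstream region. In WT G, 3 of 44 were in the top 10% (from Abca1, Abcg1 and Mylip) and 18 below the median. Values of −log10 q depend on the depth of a library, so they are compared within a list only.

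**Figure D3:**
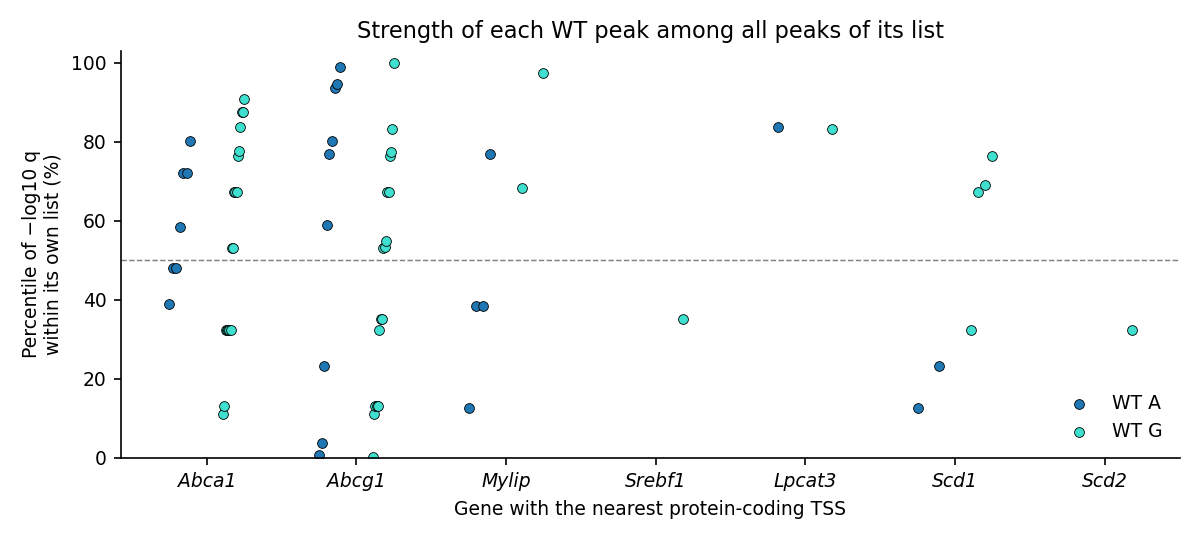
Percentile of −log10 q among all peaks of the same list (vertical axis) for each WT A and WT G peak of the 7 genes with a peak (horizontal axis), with a dashed line at 50. Abcg1 spans almost the whole range in both lists, the Lpcat3 peaks are both above 80, and the single peaks of Srebf1 and Scd2 are below 50.

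Like the lists as wholes, the member peaks were mostly intronic or intergenic. In WT A, 10 of the member peaks were intronic, 8 intergenic and 5 in promoters. In WT G, 29 were intronic, 10 intergenic and 5 in promoters. Promoters held 11.1% of all WT A peaks and 15.5% of all WT G peaks, introns 51.7% and 51.2%, and the stretches between genes 33.0% and 28.6%. Of the promoter peaks of WT G, 3 belonged to Abca1 by the nearest TSS, 1 to Abcg1 and 1 to Lpcat3.

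The KO lists, called in the same way, are the comparison for the WT peaks. They are not free of the DR1. With at most 2 mismatches, a DR1 was found in 10.8% of all KO A windows and 13.5% of all KO G windows. In windows 500 bp away the shares were 2.41% and 1.44%. A DR4 was found in 1 of 83 KO A windows (1.20%) and 3 of 208 KO G windows (1.44%). The shares 500 bp away were 2.41% and 2.88%, and counts this small cannot show a difference. For all WT A and WT G windows, the shares 500 bp away were 1.20% and 0.983% for DR4, and 1.54% and 1.59% for DR1. None of the 4 member windows of KO G held a DR1 or DR4 by that rule. A KO peak overlapped 2 of the 45 member regions, both of them among the 16 found in both WT lists. Over all genes, a KO peak overlapped 2.02% of the regions of either WT list and 5.87% of those in both. Without KO G no member region had a KO peak, since all 4 member KO peaks came from that library.

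Depth was derived from the lists, as they hold no read counts. Set against WT A, WT G had a derived depth of 0.210, KO A one of 0.572 and KO G one of 0.750, so WT G had the most peaks at the lowest depth. Each member peak rested on 11 to 37 fragments at the summit in WT A, 6 to 32 in WT G and 10 to 11 in KO G. If a place had kept its share of the reads, all 44 member peaks of WT G would have reached the lowest summit called in KO A (10 fragments) and that of KO G (8 fragments). The same held for all 9766 peaks of that list, so it says nothing particular to the members. Peaks of a WT list are in the set only because their summits passed the caller there, which favours high counts. For WT G this outcome was nearly fixed beforehand, and no conclusion on a loss in KO is drawn from it. Scaling by depth also leaves out the fragment length, which was longest for WT G (215 bp). Scaled by background level, the lowest WT G values were 10.5 fragments for KO A and 10.2 for KO G. Of the 23 of WT A, 12 would have reached the lowest summit of KO A by depth and 23 that of KO G, beside 1705 and 4653 of all 4751. For the other 11 member peaks of WT A, a kept level would not have reached the lowest summit called in KO A. A KO A peak overlapped none of the member peaks of either WT list, beside 1.62% of all WT A peaks and 0.788% of all WT G peaks. A KO G peak overlapped 3 of the 23 of WT A and 2 of the 44 of WT G, beside 3.98% and 1.93% of all peaks. The 3 of WT A were all parts of the Abcg1 upstream region, which was 1 peak in WT G.

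**Figure D4:**
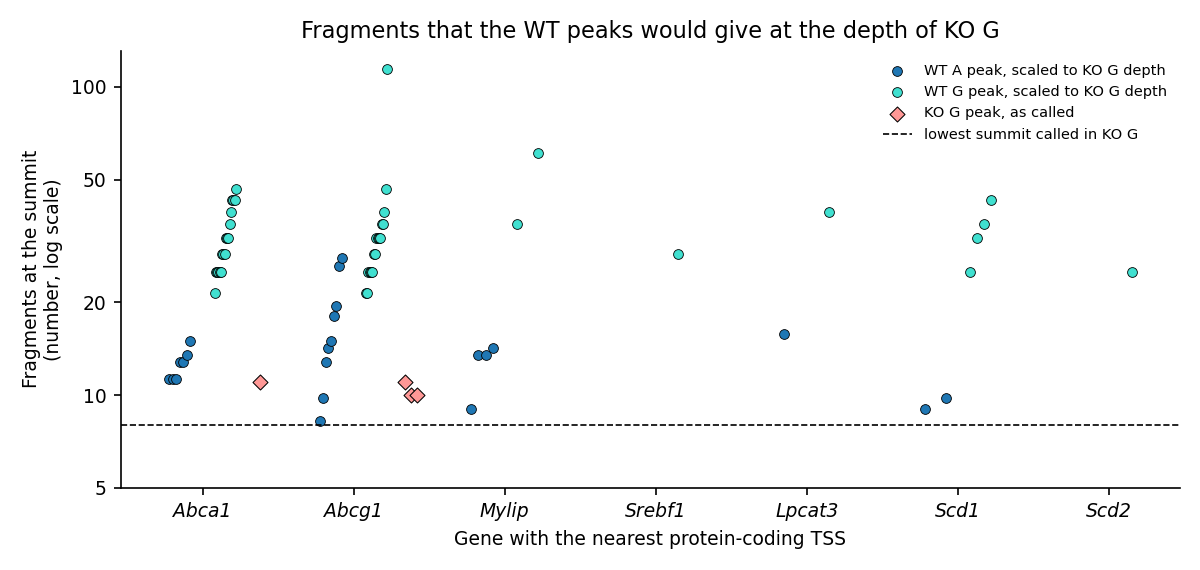
Fragments at the summit (vertical axis, log scale) that each WT A and WT G peak of the 7 genes (horizontal axis) would give at the derived depth of KO G, with the 4 KO G peaks as called (diamonds) and the lowest summit called in KO G, 8 fragments (dashed line). Every WT point scaled by derived depth is above the line, from 8.25 to 115 fragments, and the KO G peaks have 10 to 11. The WT points were selected by their own calls, which favours high values. Scaled by background level instead (not drawn), 20 of the 23 WT A peaks and all 44 WT G peaks would reach it. The lowest values would then be 7.26 for WT A and 10.2 for WT G.

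Other genes of LXR signalling and cholesterol handling, a list of 42, were counted in the same way. WT A had a peak nearest to 14 of them and WT G to 17 (33.3% and 40.5%), KO A to 0 and KO G to 1 (Cd36), beside the shares of all genes given above. The 16 other LXR targets and cofactors had 6 genes with a peak in each WT list. The 14 genes of uptake, cholesterol esters and oxysterols had 6 in WT A and 9 in WT G. The 12 genes of cholesterol synthesis and its control had 2 in each (Insig1 and Hmgcs1, 16.7% of the list).

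The 5 genes of this list with the strongest region in both WT lists were Cd36, Nceh1, Pltp, Lrp1 and Lpl. Cd36, a scavenger receptor for oxidized lipoproteins, had a region 0.753 kb inside the gene (−log10 q of 23.3 for WT A, 26.4 for WT G and 4.15 for KO G). Nceh1, a hydrolase of cholesterol esters, had an intronic region with 20.7 in WT A and 9.26 in WT G. Pltp, the phospholipid transfer protein, had an intergenic region with 15.8 and 18.8. Lrp1, a large endocytic receptor, had an intronic region with 18.2 and 14.5, and Lpl, the lipoprotein lipase, had an intergenic region 34.3 kb past its TSS with 17.0 and 14.5. None of the last 4 had a KO peak.

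Targets of the PPARs, another partner of RXR, were counted for comparison. Of 10 such genes of fat storage and burning, 8 were nearest to a WT A peak, 8 to a WT G peak, 4 to a KO A peak and 4 to a KO G peak. The 4 in KO were the same in both lists (Plin2, Angptl4, Cpt1a and Pdk4, each with 1 peak in each list), where the LXR targets had none in KO A. For Pdk4, an inhibitor of glucose oxidation, the best −log10 q was 28.6 (WT A), 26.4 (WT G), 6.15 (KO A) and 11.1 (KO G). For Angptl4, an inhibitor of lipoprotein lipase, it was 28.6, 31.3, 3.99 and 6.31. For Plin2, the coat protein of lipid droplets, it was 29.97, 18.2, 6.15 and 6.31, and for Cpt1a, which brings fatty acids into mitochondria, 12.4, 13.2, 5.04 and 4.15. The Abcg1 upstream region had 25.9 in WT A, above Cpt1a and below the other 3, and 32.5 in WT G, above all 4, with 4.15 in KO G and no KO A peak. Peak density at the PPAR targets was 3.53 (WT A) and 9.09 (WT G) per 100 kb, against 2.95 and 5.63 at the 10 members. Both lists of genes were chosen with results known, and no test was run between them.

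**Figure D5:**
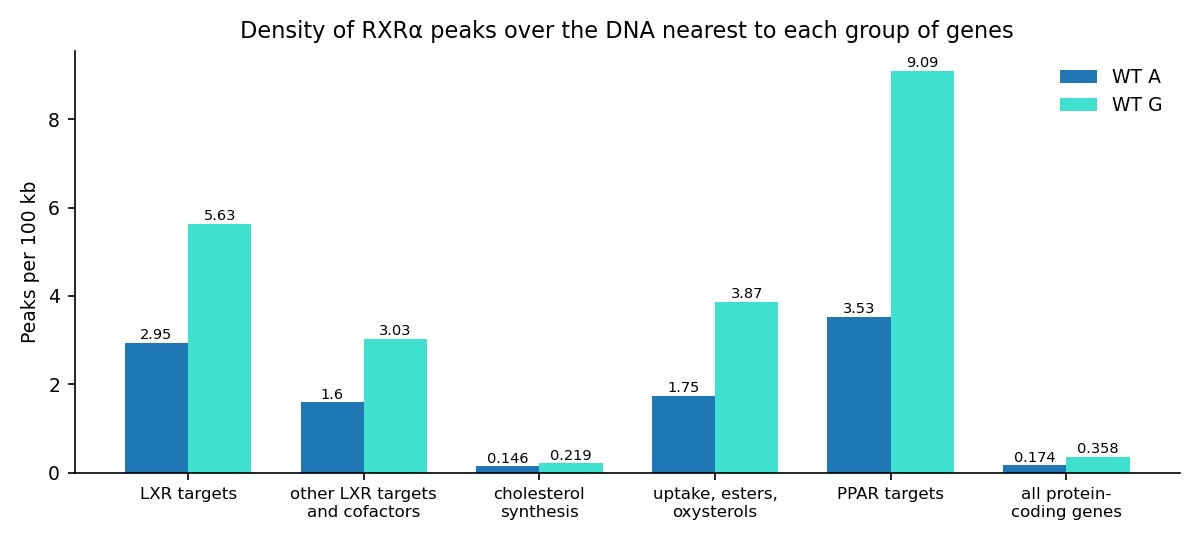
RXRα peaks per 100 kb of the DNA nearest to the genes of each group (vertical axis) in WT A and WT G. The groups are the 10 members (LXR targets and the LXR genes), 3 lists of related genes, 10 PPAR targets and all protein-coding genes. The bars run from 0.146 and 0.219 for cholesterol synthesis to 3.53 and 9.09 for the PPAR targets, with 0.174 and 0.358 for all genes.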

How the data were processed

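RXRα HT-ChIPmentation peak lists of 2 WT and 2 KO AM samples were analysed; the input entered only through the peak calls. According to the methods and the submitters' processing notes, the authors used Cutadapt 1.7.1 for adapters and Bowtie2 for alignment (mm10), filtered out duplicates and poorly paired reads (samtools 0.1.18), and ran MACS3 3.0.0a5 on each sample at a q threshold of 0.05, without pooling. Fold enrichment, as deposited, is a ratio of summit pileup to local background after adding a pseudocount of 1 to both. For −log10 p and −log10 q the deposited numbers are those of the summit; the score, also deposited, is 10 times −log10 q cut to a whole number.

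Peaks were assigned by midpoint to the nearest protein-coding TSS of GENCODE release M21 (basic set), and placed as promoter (from 1 kb before a TSS to 100 bp after it), exon, intron or intergenic. WT peaks that overlapped by at least 1 bp were merged. Each member is named by its peaks. Of the list of 42 genes, those with the 5 strongest regions in both WT lists and any gene with a KO peak are named. Its cholesterol synthesis genes with a WT peak are named too, and Apoc2 as a neighbour of Apoe. Of the PPAR list, those with a KO peak are named. The members and lists were chosen with earlier results of these data known. Fragments at the summit were derived from the fold enrichment and −log10 p as a Poisson tail, and came out whole for 4750 of 4751 peaks in WT A (tolerance 0.012, ChIP pileup scaled by 0.884) and for all peaks of the other lists (tolerance 0.004). Depth is the commonest background level over the shortest peak length, taken as the fragment length, and for WT A also over its scale of 0.884; it was not checked against read numbers. Counting error limits single summits. The steps were tested on simulated data. Software was Python 3.11.15 with pandas 2.3.3, numpy 2.4.6, pysam 0.24.0 and matplotlib 3.10.9. Alternatives covered thresholds, overlaps, TSS sets, left-out libraries, a replicate block and motif settings.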

Additional observations from a re-analysis of the deposited data

How the results depend on the processing

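The difference in member peaks between WT and KO, 31.5, kept its direction under all 10 alternatives run. It was 19 at −log10 q of at least 5 and 18 when a TSS of any gene type could be nearest, where Gm25447 took 14 of the 17 Abcg1 peaks of WT G and 5 of the 9 of WT A. Leaving out 1 library gave 21 (without WT replicate G) to 42 (without WT replicate A). With the letters as pairs (replicate block) it was 31.5, with an exact sign-flip p of 0.5, the smallest that 2 pairs allow; nothing in the labels says that the letters mark pairs. In no alternative was p under 0.333. Genes with a peak in KO G were 2, and became 0 at −log10 q of at least 5 and 1 both with any gene type and with any peak within 50 kb of the TSS. Genes with a region in both WT lists fell from 5 to 3 when at least 50% of both peaks had to be shared. Member regions with a KO peak, in either or both WT lists, became 0 with 50% overlap, 0 at −log10 q of at least 5, and 0 without KO replicate G. With 1 library left out, those of either WT list ranged from 0 to 3 (without WT replicate G), and those of both, for which only KO libraries could be left out, from 0 to 2. Of the repeats, DR4 in WT A was 2 with 100 bp on each side and 1 with 3 mismatches; DR1 in WT A was 4, 5 and, at peak centres, 2; DR4 in WT G was 0 with 1 mismatch, 3 with 3, and 0 at peak centres; DR1 in WT G was 0 and 8 with 1 and 3 mismatches. Scaling fragments by background level, chosen after seeing the data, let 18 instead of 12 WT A peaks reach the lowest summit of KO A and 20 instead of 23 that of KO G, with 44 of 44 for WT G in both. Of 62 alternatives, 40 left a count within 1.5 times its value. Shallow WT G calls, down to 6 fragments, limit what its unshared peaks show.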
